A study of Mus musculus with 2 samples.

Results

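Plasmacytoid dendritic cells (pDCs) were examined among CD45+ immune cells sorted from subcutaneous B16F10 tumours, a transplantable mouse melanoma. They were selected on their own transcripts: at least 2 unique molecular identifiers (UMIs, counts of captured mRNA molecules) of Siglech, at least 2 in all of Ccr9, Klk1, Cox6a2 and Tcf4, and at most 1 in each of 3 sums of genes that mark macrophages (C1qa, C1qb, C1qc), conventional and migratory dendritic cells (Xcr1, Cd209a, Fscn1) and T, B and NK cells (Cd3d, Cd3e, Cd79a, Ncr1). Of 14624 kept cells, 377 met this rule: 248 of 8936 from Kcnj2f/f mice (labelled WT) and 129 of 5688 from Lyz2-Cre-Kcnj2f/f mice (labelled KO). Both groups carried the floxed Kcnj2 alleles. Kcnj2 encodes the inwardly rectifying potassium channel Kir2.1, and the series asks how this channel shapes the surroundings of the tumour. Cre in the KO mice is expressed from Lyz2, a gene of macrophages, monocytes and neutrophils, so the deletion is directed at myeloid cells and not at pDCs as such. The part of Kcnj2 that was deleted and the age of the mice are not given in the sources used here. Tumours were collected at day 10, and each genotype was represented by 1 library made from the pooled tumours of 3 mice, so every difference between KO and WT below compares 2 libraries, without a test and without a measure of the spread between mice.

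pDCs are a dendritic cell lineage that develops under the transcription factor Tcf4 and is known for releasing large amounts of type I interferon when the endosomal receptors Tlr7 and Tlr9 meet viral nucleic acids. Interferon then acts on most cells through Ifnar1 and Ifnar2 and switches on a shared set of interferon-stimulated genes. In tumours, pDCs have been described both as sources of interferon and as poorly responding cells that present antigen weakly.

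The targeted gene could not be followed in these cells. Kcnj2 gave 0 UMIs in the WT pDCs and 1 UMI in the KO pDCs, where 3 counts, the limit that a count of 0 allows, correspond to 2.01 (WT) and 2.37 (KO) CPM (counts per 1000000 UMIs). In a macrophage gate (6 or more C1q UMIs) Kcnj2 stood at 17.4 (WT) and 9.64 (KO) CPM, a log2 ratio of -0.85 (95% interval -1.65 to -0.06). A 3' tag that lies outside the deleted part would not check the deletion.

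The genes of the rule mark pDCs through known functions. Siglech is a receptor of the Siglec family found on mouse pDCs, and Ccr9 a receptor for the gut chemokine Ccl25. Cox6a2 is a subunit of cytochrome c oxidase otherwise known from muscle, Klk1 a kallikrein protease and Tcf4 the E protein that specifies the lineage. Bst2 (tetherin, the antigen of the pDC antibody PDCA-1) was a marker that the rule did not use. Because E proteins bind the hexamer CACCTG, the 250 bases before the RefSeq start of the marker genes were searched for it on both strands (the reverse complement reads CAGGTG). Windows were found for Siglech, Ccr9, Klk1 and Bst2, and all 4 held the hexamer, against 19.4% of 27025 genes with a window. A second hexamer, CAGCTG, was searched alike and was found in 0 of these 4 windows, against 14.7% of all genes. The windows of 3 rule genes are shown with CACCTG or CAGGTG in capitals, each read 5' to 3' on the gene's plus strand (RefSeq, GRCm38.p6). They lie at chr7:55767934-55768183 for Siglech, chr9:123766961-123767210 for Ccr9 and chr7:44225110-44225359 for Klk1.
Siglech: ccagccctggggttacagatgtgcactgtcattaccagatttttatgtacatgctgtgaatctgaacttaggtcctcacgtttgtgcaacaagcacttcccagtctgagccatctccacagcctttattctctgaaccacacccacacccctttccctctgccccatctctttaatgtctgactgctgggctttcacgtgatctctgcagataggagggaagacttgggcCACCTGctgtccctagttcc
Ccr9: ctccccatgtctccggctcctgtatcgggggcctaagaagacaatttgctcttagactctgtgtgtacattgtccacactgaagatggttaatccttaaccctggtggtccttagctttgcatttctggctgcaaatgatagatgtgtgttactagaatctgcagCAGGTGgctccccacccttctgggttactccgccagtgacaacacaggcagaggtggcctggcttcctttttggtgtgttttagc
Klk1: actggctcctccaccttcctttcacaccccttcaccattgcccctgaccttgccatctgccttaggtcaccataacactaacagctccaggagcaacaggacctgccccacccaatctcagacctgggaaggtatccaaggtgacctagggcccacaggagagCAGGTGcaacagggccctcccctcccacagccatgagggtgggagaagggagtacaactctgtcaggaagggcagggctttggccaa
The hexamer in capitals began 20 bases before the start of Siglech, 85 before that of Ccr9 and 87 before that of Klk1. A match describes the letters and is not evidence of binding.

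The 2 libraries held 9677 WT and 6356 KO barcodes, and the KO cells were sequenced to greater depth. The median over kept cells was 4398.5 UMIs in WT and 8026 in KO, and over pDCs it was 6584.5 (range 842 to 20516) and 9461 (range 1649 to 24210). The summed pDC profiles contained 1489993 and 1264319 UMIs, so that 1 UMI corresponded to 0.671 CPM in WT and 0.791 CPM in KO. The libraries shared 63 barcode sequences, and no sequence was a pDC in both. Intervals here are exact 95% intervals that cover counting error only, and they are too narrow where a few cells hold most UMIs of a gene.

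The label pDC was checked on Bst2 and on genes the rule did not use. Bst2 was found in 217 of 248 WT and 128 of 129 KO pDCs, and after each cell was thinned to 2000 UMIs (197 of 248 and 128 of 129 cells were deep enough) in 93.9% and 94.5%. In the T cell gate, thinned alike, Bst2 was found in 19.6% and 21.7% of cells. The summed level of Bst2 was 3088 CPM in WT and 3108 CPM in KO pDCs, against 205 and 297 CPM in all other kept cells. At the edge of the rule, the 20 WT cells with exactly 2 Siglech UMIs had a median of 2078 UMIs in all, 672 CPM of Bst2 and no Ly6d UMI. The 33 WT cells with 1 Siglech UMI that met the rest of the rule, and so fell just outside, had a median of 2235 UMIs and 676 CPM of Bst2. The corresponding edges in KO held 4 cells inside and 21 outside. Over all pDCs the median was 13.5 Siglech UMIs in WT and 22 in KO.

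The exclusion genes removed candidates unevenly. Of 359 WT and 218 KO cells with enough Siglech and second-set UMIs, the bound on Xcr1, Cd209a and Fscn1 removed 62 WT and 79 KO cells, and all 3 exclusion sums together left 248 and 129. Markers of other cell types were found inside the pDCs at uneven levels. The neutrophil list (S100a8, S100a9, Csf3r, Retnlg, Cxcr2) summed to 469 CPM in WT and 160 CPM in KO, with 0 and 2 of its 5 genes at 0. In all other kept cells it was lower, at 314 and 79.0 CPM. The cDC2 list (Cd209a, Mgl2, Sirpa, Clec10a, Cd7) summed to 1295 and 1281 CPM, against 430 and 810 CPM in all other kept cells. The macrophage list summed to 76.5 and 57.7 CPM, the B cell list to 32.2 and 16.6 CPM and the melanoma list to 16.1 and 12.7 CPM, while all 5 mast cell or basophil markers were at 0 in both libraries. In all other kept cells the first 3 lists were at 609 and 893, 646 and 155, and 864 and 1203 CPM. The rule itself bounds C1qa, C1qb and C1qc of the macrophage list, Cd79a of the B cell list and Cd209a of the cDC2 list. It also bounds Cd3d and Cd3e of the T cell list, so low sums of these genes were set in part by the rule. The T cell list reached 433 and 464 CPM, nearly all of it Cd8b1 (388 and 456 CPM), while Trac was at 12.1 and 3.16 CPM. The monocyte list (1705 and 2382 CPM, against 1002 and 1092 CPM in all other kept cells) was carried by Ly6c2 (1489 and 2092 CPM), which pDCs are known to express. The part of RNA from these other cells in the results below was not tested.

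Beyond the rule genes, 400 of 2773 genes with at least 50 CPM in the pDCs of both libraries (14.4%) lay at least 2-fold above all other kept cells in each library with an interval off no change. Since the cells were picked by their transcripts, this contrast describes them and is no test. The 20 genes farthest above other cells were Pgam2, Sh3bgr, Chdh, Cdh5, Ccdc162, Smim5, Dntt, Foxr1, Klk1b27, Atp2a1, Paqr5, Pir, Ptprf, Eldr, Atp1b1, Spns3, Lefty1, Pdzd4, Slco4a1 and Upb1. Several are known from other tissues: Pgam2 (muscle phosphoglycerate mutase, 54.4 CPM in WT and 62.5 in KO) and Atp2a1 (the muscle calcium pump SERCA1, 162 and 176 CPM) from skeletal muscle, and Cdh5 (VE-cadherin, 94.0 and 85.4 CPM) from endothelium. Pgam2 was 8.32 log2 units above other cells in WT and 8.57 in KO. Dntt, the template-independent polymerase of early lymphocytes, was 180 (WT) and 152 (KO) CPM, 6.15 and 5.88 log2 units above other cells. Of these 20 genes, 19 were not called between the libraries, and Klk1b27, a kallikrein whose near-identical paralogs can share reads with Klk1, was 0.69 log2 units higher in KO. In the 14 of these 20 genes with a RefSeq window, 5 held CACCTG (35.7%) and 5 held CAGCTG (35.7%). The shares over all genes with a window were 19.4% and 14.7%.

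pDCs made up 2.78% of kept WT cells (95% interval 2.44 to 3.14) and 2.27% of kept KO cells (1.90 to 2.69). The log2 ratio of -0.29 had an interval from -0.61 to 0.02, so a difference in share was not detectable at this depth. The conventional and migratory dendritic cell gates were larger shares in KO: the cDC1 gate (2 or more UMIs of Xcr1 and Clec9a) made up 1.77% of WT and 5.47% of KO cells, the cDC2 gate (Cd209a) 3.46% and 12.8%, and the migratory gate (Fscn1) 3.12% and 7.23%. Among all cells in these 4 dendritic gates, pDCs were therefore 24.9% in WT (22.3 to 27.8) and 8.18% in KO (6.87 to 9.64), a log2 ratio of -1.61 (-1.93 to -1.30). T and B cell gates, in turn, were 32.2% and 14.5% of WT but 17.5% and 6.31% of KO cells. When these gates were left out of the total, the pDC share was 5.21% in WT and 2.98% in KO, a log2 ratio of -0.81 (-1.13 to -0.49). The change of denominator, the pooling of mice and the sort cannot be told apart from genotype with 1 library each.

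**Figure D1:**
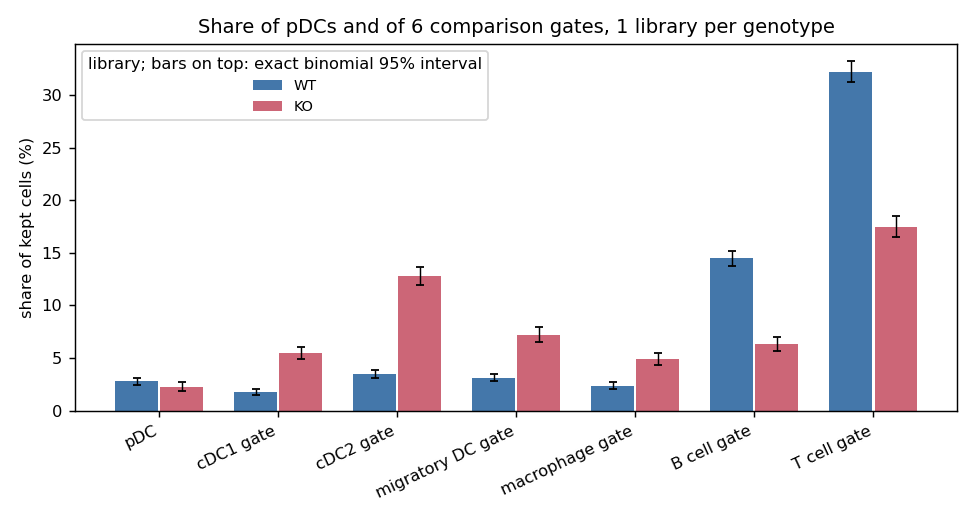
Share of kept cells (%, vertical axis) that met the pDC rule or 1 of 6 comparison gates in the WT and KO library, with exact binomial 95% intervals. The pDC bars (2.78% and 2.27%) have overlapping intervals, whereas the 3 other dendritic gates are higher in KO and the T and B cell gates higher in WT.

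The pDCs differed among themselves in both libraries. Ly6d, a surface protein shared with early B cells, was summed to 2771 CPM in WT and 2613 CPM in KO, yet 78 WT and 22 KO pDCs had no Ly6d UMI. After thinning to 2000 UMIs, 50 of 197 WT pDCs (25.4%) and 34 of 128 KO pDCs (26.6%) had none. These 2 subsets were set side by side within each library, a split chosen after seeing the data. In the cells without Ly6d, Cox6a2 was 500 CPM against 2269 CPM in WT and 485 against 2048 CPM in KO, and Iglc3 (an immunoglobulin lambda constant gene that mouse pDCs are known to transcribe) 160 against 724 CPM and 309 against 771 CPM. Scimp, a membrane adaptor of antigen-presenting cells, was lower by the same comparison, with log2 ratios of -2.85 in WT and -2.09 in KO. The interferon-induced transmembrane genes were higher without Ly6d: Ifitm1 at 360.0 against 40.8 CPM in WT and 353 against 10.6 CPM in KO, and Ifitm2 at 720.0 against 68.0 CPM and 676 against 79.8 CPM. The calcium-binding S100a4 (log2 ratios of 3.85 in WT and 1.99 in KO), the myeloid transcription factor Spi1 (2.07 and 2.58) and the kinase Plk2 (5.56 and 4.27) followed the same order. Some of these ratios rest on few UMIs. Plk2 had 16 against 1 UMIs in WT (interval 2.87 to 10.9) and 14 against 2 in KO (2.15 to 7.45). Ifitm1 had 24 against 2 UMIs in KO. Leaving out the richest cells was not tried for this split. Of 1133 genes with at least 100 CPM without Ly6d in both libraries, 30 (2.65%) were at least 2-fold higher there in both with an interval off no change, out of 64 in WT and 60 in KO. Of 1219 genes with at least 100 CPM in the cells with Ly6d, 18 (1.48%) were lower without it in both, out of 127 in WT and 55 in KO. Each minimum was set on the subset where the counted genes are higher. The 2 shares therefore use unlike filters, cannot be compared with each other, and describe the split without testing it. Some genes had an interval off 0 in WT and across 0 in KO: Lair1, an inhibitory collagen receptor, had log2 ratios of -1.21 in WT and -0.20 in KO, and Smim5 -1.51 and -0.44. The pDC markers were lower without Ly6d: Siglech had log2 ratios of -0.88 in WT and -0.81 in KO, Bst2 -0.88 and -0.56, Ccr9 -1.17 and -0.75 and Klk1 -1.09 and -1.03, all with intervals off 0. Tcf4 had -0.31 in WT (-0.53 to -0.08) and -0.087 in KO (-0.37 to 0.19). Cd74, the invariant chain of MHC class II, was 6330 against 5663 CPM in WT and 5912 against 5457 CPM in KO. The Ly6d-free subset is part of the rule's population, and no transitional dendritic cell name was given to it. Cx3cr1 and Axl were too sparse to decide the name. Cx3cr1 gave 2 UMIs there in each library, against 2 in WT and 0 in KO with Ly6d, and Axl 0 in both subsets. Other genes listed for transitional and conventional dendritic cells went both ways. Without Ly6d, Ifi30 had log2 ratios of 1.26 in WT and 0.94 in KO, both with intervals off 0. Cst3 had 0.75 and -0.040 and Ly86 -0.45 and -0.23, with intervals off 0 in WT only.

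The T cell co-receptors Cd8a and Cd4, both known in mouse pDCs, were found in many cells, whereas the T cell receptor gene Trac gave 18 WT and 4 KO UMIs. Cd8a was found in 84 WT and 38 KO pDCs and Cd4 in 75 and 56, and both together in 31 and 15. At 2000 UMIs per cell, Cd8a was found in 18.8% of WT and 14.1% of KO pDCs and in 2.48% and 0.59% of the B cell gate. Summed levels were 107 and 129 CPM for Cd4. Lag3, an inhibitory receptor that binds MHC class II, stood at 252 and 268 CPM.

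**Figure D2:**
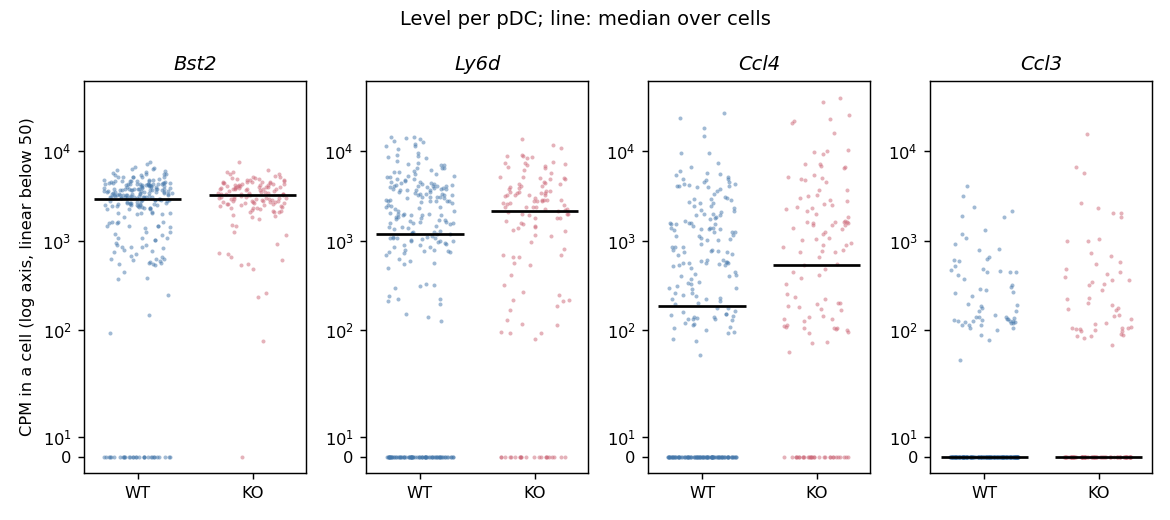
Level in each pDC (CPM in a cell, log axis with a linear part below 50) of the marker Bst2, of Ly6d and of the chemokines Ccl4 and Ccl3 in the WT (248 cells) and KO (129 cells) library, with the median over cells as a line. The Bst2 median is 2925 CPM in WT (quartiles 1011 and 3873, 31 cells at 0) and 3215 CPM in KO (2454 and 4075, 1 cell at 0). Ly6d splits the cells, and the Ccl4 median is 188 CPM in WT and 530 CPM in KO.

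Between the libraries, most genes of the pDCs were close. Of 2974 genes with a mean of at least 50 CPM, 54 (1.82%) were called higher in KO and 34 (1.14%) lower, where a call means a ratio of at least 1.5-fold and a counting interval off no change. The median log2 ratio over these genes was 0.02. Without the 5 pDCs of each library that held most UMIs of the gene in question, 31 of the 54 and 30 of the 34 were still called. Leaving out 5 cells removes 2.02% of WT and 3.88% of KO pDCs and so leans toward lower KO values. Under 9 alternatives (this one, a stricter Siglech or mitochondrial limit, doublet scores, no exclusion genes, without the 5 deepest cells, 2 other scalings, and cells with a Bst2 UMI) 11 higher and 7 lower genes kept their call throughout. With proper symbols these were Ccl3, Slfn5, Ccl4, Usp18, Ifi44, Tent5c, Il4ra, Taf10, Smim3 and Fam241a, and on the lower side Ccl5, Pisd-ps2 and Cd8a, with AW112010, a long non-coding RNA; Il4ra, Taf10, Smim3, Fam241a and AW112010 are named here after their values were seen.

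**Figure D3:**
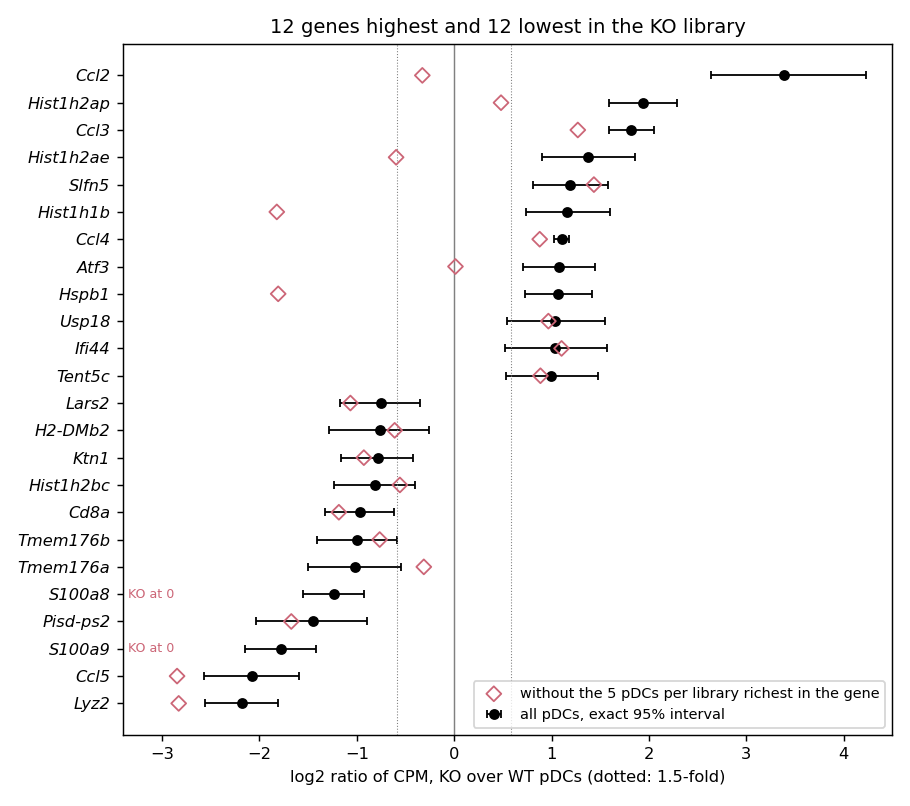
Log2 ratio of CPM (KO over WT, horizontal axis) of the 12 genes highest and 12 lowest in KO pDCs, with exact 95% counting intervals, and as open diamonds the ratio without the 5 pDCs per library richest in that gene. The diamonds of Ccl2, Hist1h2ae, Hist1h1b and Hspb1 lie below 0, while those of Ccl3, Slfn5, Ccl4, Usp18, Ifi44 and Tent5c stay at or above 0.88, and S100a8 and S100a9 have no KO UMI left.

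Among the chemokines, 2 genes were higher in KO pDCs with and without their richest cells. Ccl4 and Ccl3, neighbouring chemokine genes on chromosome 11 (Ccl3 from 83647844 to 83649355, Ccl4 from 83662584 to 83664683, GRCm38) whose products attract leukocytes, were both higher in KO pDCs. Ccl4 was 1491 CPM in WT (2222 UMIs in 150 cells) and 3201 CPM in KO (4047 UMIs in 98 cells), a log2 ratio of 1.10 (1.03 to 1.18). It remained 0.88 without the 5 richest pDCs of each library, although the 5 richest KO cells held 43.2% of the KO UMIs. Over the 10 alternatives followed for named genes, the lowest ratio of Ccl4 was 0.69, and 4 values lay outside the reported interval. At 2000 UMIs per cell, 49.7% of WT pDCs (42.6 to 56.9) and 58.6% of KO pDCs (49.6 to 67.2) held Ccl4, so the shares overlapped while the summed levels did not. The T cell gate held Ccl4 in 39.9% (WT) and 36.9% (KO) of cells at this depth. In the B cell gate, the shares at this depth were 15.9% and 13.9% (median depth before thinning 3029 and 3333 UMIs), and the level was 538 (WT) and 130 (KO) CPM. Whether the cells of that gate expressed Ccl4 themselves was not tested. Summed over cells, Ccl4 in pDCs had a log2 ratio over all other cells of -0.065 in WT and 0.39 in KO. Ccl3 was 139 CPM in WT (207 UMIs in 64 cells) and 490 CPM in KO (620 UMIs in 52 cells), a log2 ratio of 1.82 (1.59 to 2.05), or 1.27 without the 5 richest cells. The lowest Ccl3 ratio over the 10 alternatives was 0.95, and 5 values lay outside the reported interval. Both chemokines were found together in 38 WT and 44 KO pDCs. At 2000 UMIs per cell, Ccl3 was found in 14.2% of WT and 19.5% of KO pDCs. The shares were 19.1% and 19.6% in the T cell gate, and 7.53% and 6.49% in the B cell gate. The WT level of Ccl3 was below the 201 CPM of the WT B cell gate. Other gates showed smaller ratios of Ccl4, at 0.49 in the cDC1 gate, 0.05 in the cDC2 gate and 0.17 in the macrophage gate, and no test of the difference was possible with 1 library each.

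The ratios of the other chemokines higher in KO rested on few cells or few UMIs. Ccl2, a monocyte attractant, had 16 UMIs in 11 WT pDCs and 142 UMIs in 9 KO pDCs, of which the 5 richest held 97.2%. Its log2 ratio of 3.39 became -0.33 without those cells and -0.12 without the 6% of kept cells with the highest doublet scores. Cxcl2, a neutrophil attractant, had a ratio of 0.87 in all pDCs and -0.49 without the 5 richest, which held 94.4% of its KO UMIs. Of the 14 chemokine and cytokine genes with at least 20 UMIs (of 23 listed), 8 were higher and 2 lower, with a median of 0.82, against 2.95% higher and 2.68% lower of all 8689 genes with at least 20 UMIs and a median of 0.01. Only Ccl3 and Ccl4 of the 8 kept the call without their 5 richest cells, and the median was then 0.16. Cxcl10 (1.49, then 0.94) and Ccl9 (1.14, then 2.10) stayed on the higher side, but with 5 WT and 8 KO UMIs left for Cxcl10 and 2 and 7 for Ccl9 their intervals spanned 0. With the highest doublet scores removed, 2 were higher and 4 lower, and the median was -0.54. With no exclusion genes in the rule, 19 were measured, 6 of them higher and 5 lower (median 0.063). The macrophage gate held Ccl2 at 2851 (WT) and 2962 (KO) CPM. The 2 lower genes were Ccl5, described further on, and Il12a, the p35 subunit of interleukin 12, at 65.1 CPM in WT (97 UMIs in 49 cells) and 34.8 CPM in KO (44 UMIs in 25 cells), a log2 ratio of -0.90 (-1.45 to -0.38). At 2000 UMIs per cell Il12a was found in 9.14% and 5.47% of pDCs, in 6.61% and 4.13% of the B cell gate, and in 0.23% and 0.10% of the T cell gate. The same list had 8 genes higher and 1 lower of 19 in the cDC1 gate (median 0.55), and 6 and 1 of 19 in the cDC2 gate (0.33). It had 4 and 0 of 18 in the macrophage gate (0.45) and 2 and 4 of 19 in the migratory gate (-0.0044). In the B cell gate 1 was higher and 15 lower of 20 (-1.12), and in the T cell gate 4 and 3 of 22 (0.011). Shares called over all genes of each gate are given with the interferon-stimulated genes below.

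Sensors of the interferon pathway were found, and of the interferon genes listed a single UMI. Tlr7 was 99.3 CPM in WT and 121 CPM in KO pDCs against 8.80 and 11.3 CPM in all other cells, and its log2 ratio of 0.28 had an interval across 0 (-0.05 to 0.62). Tlr9 was sparse, with 18 and 8 UMIs. Unc93b1, which carries these receptors to endosomes, was 533 and 577 CPM, and Irf7, the factor that drives interferon alpha genes, 158 and 188 CPM. Of 20 measured sensing genes (of 25 listed), 2 were higher in KO: Irak4, a kinase of the Tlr adaptor complex (0.73, with 32 and 45 UMIs), and Ifih1, the RNA sensor MDA5 (1.21, or 0.67 and no longer called without its 5 richest cells). The share called higher over all genes with at least 20 UMIs was 2.95%. No UMI of any of the interferon alpha genes listed, nor of Ifne, Ifnz, Ifnl2 or Ifnl3, was found in the pDCs of either library. Ifnb1 gave 1 UMI in WT and 0 in KO pDCs, whereas the macrophage gate had 30.7 and 97.1 CPM. The receptor subunits Ifnar1 (377 and 365 CPM) and Ifnar2 (301 and 292 CPM) and the factor Stat2 (173 CPM in both) were close between the libraries. None of the 8 measured genes of the interferon and receptor list was called.

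Among the interferon-stimulated genes, every call was toward KO. Of 36 listed genes, 27 had at least 20 UMIs, and 9 of these were higher in KO pDCs and 0 lower, with a median log2 ratio of 0.47 against 0.01 over all genes. Over all 8689 genes with at least 20 UMIs, 2.95% were higher and 2.68% lower. The 9 were Rsad2, Oasl1, Slfn5, Usp18, Ifi44, Xaf1, Ifit2, Ifitm3 and Ifi204. Slfn5, a Schlafen family gene, was 59.1 CPM in WT (88 UMIs in 28 cells) and 134 CPM in KO (170 UMIs in 35 cells), a log2 ratio of 1.19 (0.81 to 1.58). Its share of cells at 2000 UMIs, 7.11% and 11.7%, was not far above the 5.79% and 6.19% of the B cell gate. Usp18, the protease that removes Isg15 from proteins and damps interferon receptor signalling, was 36.2 CPM (54 UMIs in 31 cells) and 74.3 CPM (94 UMIs in 41 cells), a ratio of 1.04 (0.54 to 1.55). Ifi44 was 33.6 CPM (50 UMIs in 27 cells) and 68.8 CPM (87 UMIs in 37 cells), a ratio of 1.04 (0.52 to 1.57). At 2000 UMIs per cell, Ifi44 was found in 5.08% of WT and 12.5% of KO pDCs, and in 0.73% and 0.59% of the B cell gate. Without the 5 richest cells of each library, 7 of the 9 kept the call, while the ratio of Rsad2 was then 0.0062 and that of Ifit2 -2.54. Rsad2 (viperin) had 93.6% of its 78 KO UMIs in 5 cells. The other 18 measured genes were not called: Isg15 was 87.2 CPM in WT and 87.0 CPM in KO, Mx1 34.9 and 32.4 CPM, and Bst2, itself interferon-inducible, had a ratio of 0.0092 with an interval across 0 (-0.05 to 0.07). When the exclusion genes were dropped from the rule, 7 of 34 measured genes were higher and 4 lower, with a median of 0.25, and under the other alternatives 5 to 10 were higher and none lower.

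The same list was read in the comparison gates of the same 2 libraries. Calls toward KO were made in the dendritic and macrophage gates as well: 13 of 34 genes in the cDC1 gate (median 0.58), 19 of 36 in the cDC2 gate (0.70), 13 of 32 in the migratory gate (0.57) and 21 of 36 in the macrophage gate (0.71), with none lower. Over all genes with at least 20 UMIs, 4.83% were higher and 2.16% lower in the cDC1 gate, 4.72% and 2.87% in the cDC2 gate, 4.9% and 10.3% in the migratory gate and 6.09% and 4.35% in the macrophage gate. In the B cell gate 3 were higher and 2 lower of 36 (median -0.06), and in the T cell gate 5 higher and 0 lower (0.04), where 3.88% and 8.84% of all genes were higher and lower in the B cell gate and 6.45% and 3.88% in the T cell gate. The median over all genes of a gate lay between -0.094 and 0.042. The gates differ in cells and UMIs, which sets how many genes can be called. The gates share the libraries, their depths and any free RNA, so these are values side by side and not independent results.

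**Figure D4:**
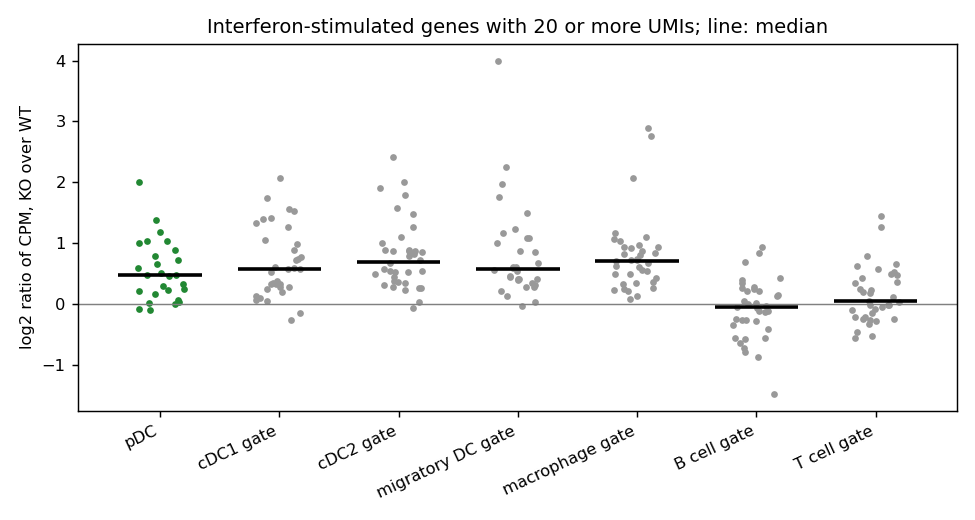
Log2 ratio of CPM (KO over WT, vertical axis) of each interferon-stimulated gene with at least 20 UMIs in pDCs (green) and in 6 comparison gates (grey), with the median as a line. The pDC median of 0.47 lies with those of the conventional, migratory and macrophage gates (0.57 to 0.71) and above those of the B and T cell gates (-0.06 and 0.04).

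The interferon-stimulated response element, a motif known from promoters of such genes, was searched in the same promoter windows as GAAA, any 2 bases (NN), GAAA on both strands (the reverse complement reads TTTC, NN, TTTC). Of the 27 listed interferon-stimulated genes with a window, 15 (55.6%) held it, against 3.46% of 27025 genes. The windows of Slfn5, higher in KO, and of Bst2, not called between the libraries, are shown with the element in capitals. Slfn5 is on the plus strand (chr11:82951852-82952101) and Bst2 on the minus strand (chr8:71537473-71537722), both read 5' to 3' on the gene's own strand (RefSeq, GRCm38.p6).
Slfn5: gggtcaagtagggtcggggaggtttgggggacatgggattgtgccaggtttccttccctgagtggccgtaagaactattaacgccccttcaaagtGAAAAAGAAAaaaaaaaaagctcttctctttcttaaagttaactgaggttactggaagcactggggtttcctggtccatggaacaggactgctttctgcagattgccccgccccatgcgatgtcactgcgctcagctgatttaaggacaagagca
Bst2: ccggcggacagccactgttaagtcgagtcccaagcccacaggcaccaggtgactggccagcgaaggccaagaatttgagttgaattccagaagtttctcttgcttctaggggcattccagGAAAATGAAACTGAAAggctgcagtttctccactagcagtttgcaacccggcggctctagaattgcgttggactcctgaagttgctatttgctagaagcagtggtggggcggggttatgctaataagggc
Slfn5 held 1 match, beginning 155 bases before the start, and Bst2 held 2 overlapping matches, beginning 130 and 124 bases before it. Ifi44 held none in its window. A window with the element was thus found both for a gene called higher and for a gene that was not.

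Few identity and antigen presentation genes were called. For comparison, 2.95% of all 8689 genes with at least 20 UMIs were called higher and 2.68% lower. Of 31 measured pDC surface and effector genes, 1 was higher (Klk1, 493 and 768 CPM, 0.64, no longer called at 0.50 without its 5 richest cells) and 1 lower (Cd8a), with a median of 0.03. The rule genes Siglech (2641 and 2429 CPM, -0.12), Cox6a2 (1826 and 1466 CPM, -0.32), Tcf4 (2377 and 2021 CPM, -0.23) and Ccr9 (1275 and 1434 CPM, 0.17) are given as description because the rule used them. Of 19 measured transcription factors, 1 was called: Id2, an inhibitor of E proteins, with 46 UMIs in 29 WT and 61 UMIs in 18 KO cells (0.64, or -0.73 without the 5 richest). The pDC factors Irf8 (2511 and 2663 CPM), Runx2 (639.6 and 592 CPM), Bcl11a (747 CPM in both) and Spib (142 and 153 CPM) were not called. Ly6c2, a surface protein of pDCs and monocytes, had a log2 ratio of 0.49 and stayed under the 1.5-fold bound. MHC class II genes gave 1 lower call of 11 (H2-DMb2, -0.76, no longer called without its 5 richest cells), with Cd74 at 6269 and 5846 CPM. MHC class I genes gave 1 higher call of 12, the peptide-loading chaperone Tapbp (229 CPM in WT, 365 in KO, log2 ratio 0.67, interval 0.47 to 0.88). Their median of 0.22 lay above the median of 0.01 over all genes. Of 10 co-stimulatory and checkpoint genes, 3 were higher (Cd86, Cd274 and Tnfsf9) and 1 lower (Ccr7, the receptor that guides dendritic cells to lymph nodes, -1.08), and none of the 3 kept the call without its richest cells. The co-stimulatory Cd86 was sparse, at 24 UMIs in 17 WT and 52 UMIs in 19 KO cells, and its ratio of 1.35 was not called at 0.78 without the 5 richest cells.

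Most cell cycle calls came from a handful of KO cells. Of 12 measured proliferation genes, 6 were higher (median 0.67), against 2.95% of all genes with at least 20 UMIs. Stmn1, which destabilises microtubules in dividing cells, had 25 UMIs in 20 WT cells and 68 UMIs in 8 KO cells, and its ratio of 1.68 became -2.06 without the 5 richest. None of the 6 kept the call without the richest cells, although Tyms (1.46, then 1.27) and Pcna (0.59, then 0.41) stayed on the higher side with intervals across 0, and without the 5 pDCs of each library with most UMIs in all, 0 of 9 were called. The histone genes Hist1h2ae (1.37) and Hist1h1b (1.16) turned in the same way, to -0.60 and -1.82. Hist1h2ap was found in 48 WT and 48 KO cells, with 75.3% of its KO UMIs in 5 cells, and fell from 1.93 to 0.48. Of 19 immediate early and stress genes, 4 were higher (Atf3, Fosb, Dusp1 and Nr4a1) with a median of 0.00. Fosb kept the call without its richest cells (0.89 and then 0.64), while Atf3 moved from 1.07 to 0.013. Hspb1, a small heat shock protein, moved from 1.06 to -1.81.

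Several of the lower genes are known from other cells of the tumour. Ccl5 was 146 CPM in WT (218 UMIs in 129 cells) and 34.8 CPM in KO (44 UMIs in 25 cells), a ratio of -2.07 (-2.57 to -1.60). At 2000 UMIs per cell it was found in 23.9% of WT and 5.47% of KO pDCs. These shares were below the 27.1% and 7.37% of the B cell gate. Whether this Ccl5 came from the pDCs or from other cells was not tested. The T cell gate, 32.2% of WT and 17.5% of KO cells, held Ccl5 at 12115 (WT) and 5614 (KO) CPM. Lyz2, the lysozyme gene that carries Cre in the KO mice, was 254 CPM in WT and 56.2 CPM in KO pDCs (-2.18), with 86.5% of the WT UMIs in 5 cells. Its share of cells at 2000 UMIs was 8.12% in WT and 3.12% in KO, against 11.5% and 2.95% in the B cell gate. Every comparison gate showed lower Lyz2 in KO too, from -0.66 in the migratory gate to -3.50 in the T cell gate, with -2.45 in the macrophage gate. S100a8 and S100a9, neutrophil genes, came from 9 and 15 WT cells and from 1 KO cell. Their ratios of -1.24 and -1.78 became 1.32 and 1.41 when the 5 pDCs with most UMIs were left out of each library.

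Cd8a and Pisd-ps2 were lower across many cells. Cd8a was 152 CPM in WT (226 UMIs in 84 cells) and 77.5 CPM in KO (98 UMIs in 38 cells), a ratio of -0.97 (-1.33 to -0.62), and -1.18 without its 5 richest cells. Its partner Cd8b1, made from the neighbouring gene, did not follow: 388 CPM in WT and 456 CPM in KO, a ratio of 0.23. In the T cell gate, Cd8a had a ratio of -0.39 and Cd8b1 of -0.73. Pisd-ps2, a pseudogene of the phosphatidylserine decarboxylase Pisd, was 77.9 CPM in WT (116 UMIs in 80 cells) and 28.5 CPM in KO (36 UMIs in 29 cells), a ratio of -1.45, and its reads can be shared with Pisd, itself called lower at -0.64. All 6 comparison gates had a lower Pisd-ps2 in KO, from -0.36 to -1.31. Ebf1, a B cell factor, had 25 UMIs in 12 WT cells and 1 UMI in KO, a ratio of -4.41 with an interval from -9.77 to -1.80.

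The remaining lists gave few calls, where 2.95% of all genes with at least 20 UMIs were higher and 2.68% lower. None of 22 secretory and endoplasmic reticulum genes was called (median 0.06), nor any of 10 survival and death genes (-0.072). Of 15 genes of the interferon gamma response, Cxcl10 (1.49) and Gbp3 (0.96) were higher and Gbp2 (-1.26) lower, with a median of 0.047. Of 14 NF-kB feedback genes, Birc3 and Bcl2a1d were higher and Bcl2a1b lower; the Bcl2a1 genes are near-identical copies whose reads can be split between them. Among 16 chemokine receptor and adhesion genes, Itgam, the integrin chain CD11b, was higher (1.04) and Ccr7 lower, with a median of -0.0026. The lists of genes shared with B cells (12 measured) and with transitional and conventional dendritic cells (14 measured) gave 1 lower call each, Ebf1 and Lyz2. Glycolysis gave 1 higher call of 15, and the ion channel and transporter list 1 of 11 (Orai1, the pore of the store-operated calcium channel, at 40 UMIs in 32 WT and 63 UMIs in 42 KO cells, 0.89). P2ry14, a receptor for UDP-glucose, stood at 329.5 and 374 CPM and the proton channel Hvcn1 at 96.6 and 94.9 CPM, neither called. Tent5c, a poly(A) polymerase outside the lists, was 41.6 CPM in WT (62 UMIs in 28 cells) and 83.0 CPM in KO (105 UMIs in 33 cells), a ratio of 0.997 (0.53 to 1.47).

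**Figure D5:**
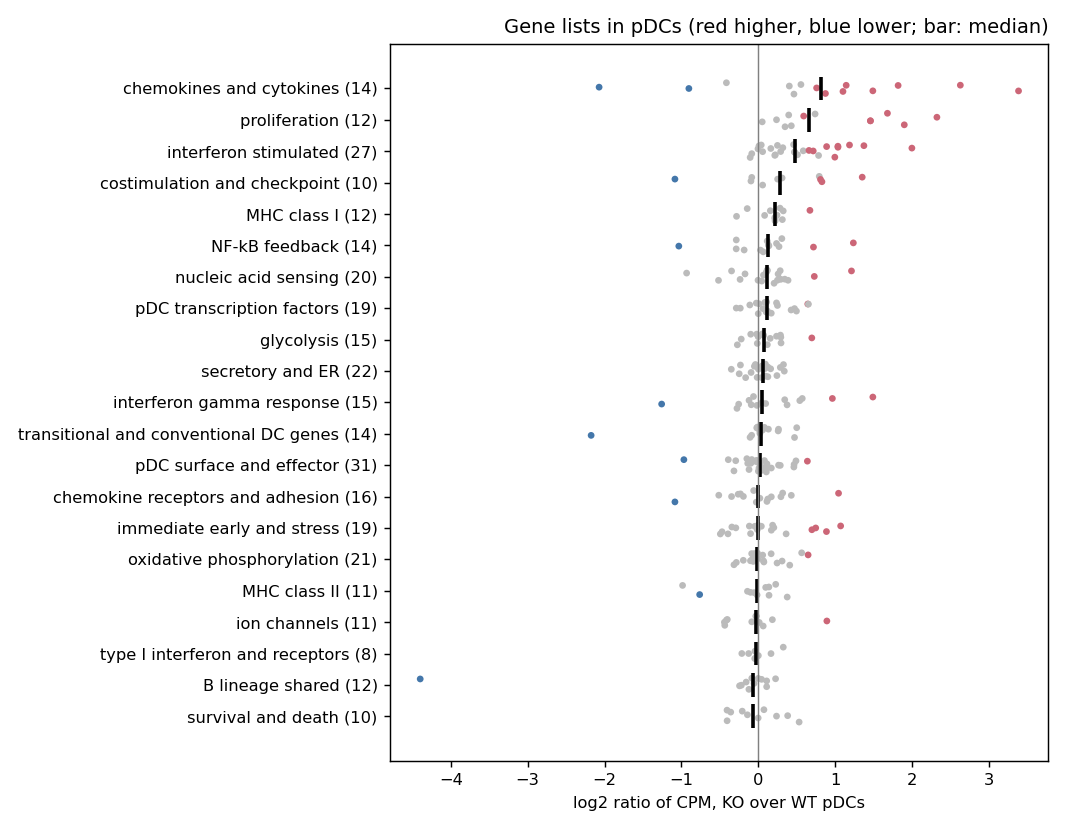
Log2 ratio of CPM (KO over WT pDCs, horizontal axis) of each gene with at least 20 UMIs in 21 gene lists, with the number of genes in parentheses, calls in red (higher) and blue (lower) and the list median as a bar. The chemokine, proliferation and interferon-stimulated lists have the highest medians (0.82, 0.67 and 0.47), of which the first and the second rested on a few cells.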

How the data were processed

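CD45+ tumour cells of 1 WT and 1 KO library were profiled by 10x 3' single-cell RNA sequencing. The deposited matrices hold raw UMI counts per gene and barcode, with no normalization. The submitters' processing notes list the build GRCm38 and the tools Cell Ranger 3.1.0, bcl2fastq 2.20 and Seurat 4.0.1, whereas the matrix headers name Cell Ranger 4.0.0. No barcode held fewer than 500 UMIs, and the sources used here do not say how that limit arose.

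Of all barcodes, those with 200 or more of the 55450 genes and mitochondrial UMIs of 15% or less entered as kept cells. UMIs were summed over pDCs per library and scaled to CPM, with exact Poisson intervals. Log2 ratios have exact conditional binomial intervals, and shares have exact Clopper-Pearson intervals. No test was made, since each group was 1 library. Genes with a mean of at least 50 CPM, or in lists at least 20 UMIs, were called at 1.5-fold with the interval off no change, and the ratio script was tested on simulated data. Where 108 symbols had several gene IDs, the ID with most UMIs was used. Shares of cells with a UMI were read after thinning to 2000 UMIs per cell. Comparison gates were own rules on marker UMIs. Scrublet (scanpy 1.11.5, expected rate 6%) called 1 WT and 6 KO cells, too few to work as a filter, so doublets were not removed, and an alternative removed the highest 6% of scores.

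Named genes are the 12 highest and 12 lowest ratios and the 20 genes farthest above other cells. The rule and marker genes, Kcnj2, Lyz2 and list members are also named. Xist, Tsix, Y-linked, haemoglobin, immunoglobulin, T cell receptor, mitochondrial, ribosomal and unnamed genes were not ranked, while other X-linked genes were. Members and lists were chosen with earlier results of these data known. In the sensing list, Cgas replaced an older symbol. Python 3.11.15, numpy 2.4.6, scipy 1.17.1 and pandas 2.3.3 were used. Gene positions are from GENCODE M21.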

Additional observations from a re-analysis of the deposited data

How the results depend on the processing

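Each choice was changed on its own: the Siglech minimum, the mitochondrial limit, doublet scores, the exclusion genes, the scaling, the minimum level, the fold of a call and the cells summed. Leaving out the 5 pDCs richest in a gene and keeping cells with a Bst2 UMI were chosen after seeing the data. No paired analysis was possible because each genotype had 1 library. Of 546 ratios of named genes and 32 other values under alternatives, 490 stayed within the counting interval of the reported value or within 1.5 times the reported count, 71 moved beyond it, and 17 changed sign where the reported interval lay off 0. Another 29 of these values, of 12 genes with a reported interval across 0, also had the other sign. The pDC share ratio of -0.29 ranged from -0.07 to -0.35 under alternatives to the rule, the filters and the depth, with an interval off 0 (-0.68 to -0.03) only where high doublet scores were removed, and was -0.81 without the T and B cell gates in the total. Counts of higher and lower genes, 54 and 34 as reported, were 84 and 48 without mitochondrial and ribosomal protein genes in the total, 179 and 121 at a 20 CPM minimum, 256 and 233 at 20 UMIs, and 12 and 9 at 2-fold; genes above other cells were 668 at 20 CPM. Fewer or more genes enter at these minimums by construction. Where the reported interval lay off 0, signs changed for Ccl2 (-0.12), Atf3 (-0.47) and Hspb1 (-0.97) without the highest 6% of doublet scores; for Siglech (0.031) and Tcf4 (0.054) without the exclusion genes; for Ccl2 (-0.18), Hist1h2ae (-0.32), Hist1h1b (-0.997), Stmn1 (-0.24), S100a8 (1.32) and S100a9 (1.41) without the 5 pDCs with most UMIs; for Ccl2 (-0.33), Hist1h2ae (-0.60), Hist1h1b (-1.82), Hspb1 (-1.81) and Stmn1 (-2.06) without the 5 richest in the gene; and for Cox6a2 (0.039) as a mean over cells. Beyond the few cells that hold these UMIs, the cause was not tested.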

Other observations

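Outside the ranked genes, 3 of the models without a proper symbol kept a lower call in KO pDCs under all 9 alternatives: Gm42047 (-1.41, 177 and 66.4 CPM), Gm26917 (-1.20) and Gm43305 (-1.12). Gm20186 kept a higher call (1.02). Gm42418 (-0.91) was called under 8 of 9. These were chosen after their values were seen.

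Il4ra, the receptor chain shared by interleukins 4 and 13, was 46.3 CPM in WT (69 UMIs in 60 cells) and 81.5 CPM in KO (103 UMIs in 50 cells), a log2 ratio of 0.81 (0.36 to 1.28) with 0.68 left without its 5 richest cells. Birc3, an inhibitor of apoptosis induced through NF-kB, was 61.1 and 100.4 CPM (0.72, then 0.77). Taf10, a subunit of the transcription factor TFIID, was 63.8 and 109 CPM (0.78, then 0.89).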
